A study of Arabidopsis thaliana with 12 samples.

Results

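The subject here is a set of 54 Arabidopsis thaliana nuclear genes whose mean signal was lower after 1 h of dehydration in both lines of the study, out of 13217 nuclear genes that have a probe set of their own with a name in the tables used. A gene was taken when its mean log2 signal was lower by 0.8 or more in wild type and by 0.8 or more in the overexpressing line, and when its mean log2 signal was at least 7 in the control seedlings of both lines. Each gene is represented by the probe set with the highest mean over all arrays, and genes whose symbols begin with ATG, EXPA, GH, BGLU, bZIP, ALDH, LSM, TUB or GSTU were kept out, as were IAA29, LBD16, DPE1 and FMA. That exclusion removed 2 genes that had met both thresholds. Because these very differences chose the genes, their size after dehydration is described below and not tested.

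The study used 12 Affymetrix ATH1 arrays, 3 in each of 4 groups of seedlings aged 1 week. WT was the wild type. 46T, which the labels also write as OV46, was the one line in which the transcription factor WRKY46 is overexpressed, and the labels do not say which promoter drives it. Control seedlings (CK) were left untreated, and dehydrated seedlings (Dry) lay on Whatman paper in dim light at 22 °C and 60% humidity for 1 h. The growth chamber ran at 24 °C by day and 21 °C by night, with 16 h of light and 8 h of dark. No label says that control seedlings were moved or kept in dim light, or taken at the same hour as dehydrated ones. Water loss, the change of light and temperature and any difference in hour therefore cannot be told apart. No named probe set stands for WRKY46, so its overexpression was not checked. The labels call the arrays biological replicates without saying how the seedlings were kept apart, so the tests measure the spread between these arrays, and the number of arrays limits their precision.

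When a plant loses water it closes its stomata, slows growth and reprograms its transcripts, in part through abscisic acid. Some transcripts accumulate and others decline, and a decline within a short treatment can go no faster than the transcript decays. The set holds genes known from other parts of plant life: CHX20 and BLUS1 act in guard cells, PORB in chlorophyll synthesis, DEWAX in the control of the leaf's wax layer, and IVD in the breakdown of leucine.

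Genes at the required control level numbered 5987, and the 54 were those past the difference threshold in both lines. With the same level rule, 68 genes passed it in WT and not in 46T, 73 in 46T and not in WT, and 170 were higher by at least as much in both lines. A further 61 probe sets with no gene name and 1 that names several genes met the same thresholds and are not described here. Of the 54, only 6 carry a symbol in the RefSeq table for TAIR10.1 (CCL, PORB, CHX20, Fes1B, UGT85A4 and IVD). AT5G61590 is listed there under the synonym DEWAX and AT4G14480 under BLUS1, and these names are used below. The other genes are known in these tables by locus tag alone, and no role is given for them beyond the gene lists that some belong to.

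**Figure D1:**
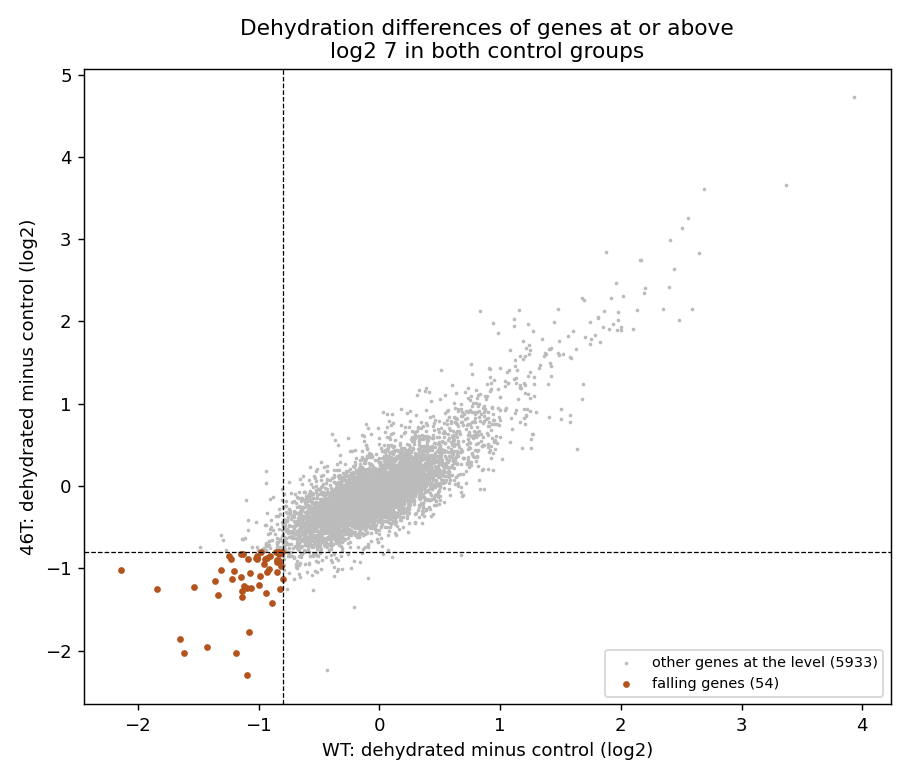
Each point is a gene at log2 7 or above in both control groups, with the dehydrated minus control difference in WT on the horizontal axis and in 46T on the vertical axis (log2, means of 3 arrays). The 54 genes of the set lie in the lower left corner that the dashed lines at -0.8 mark out, and the 170 genes that were higher in both lines by as much lie at the opposite end.

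Over the 54 genes the median log2 difference was -1.02 in WT and -1.03 in 46T, beside medians of -0.02 and -0.07 over all 14495 tested probe sets. On the linear scale the genes were left at 22.7% to 57.4% of their control level in WT (median 49.3%) and at 20.3% to 57.4% in 46T (median 49.0%). In WT 31 genes were at 50% of control or lower, in 46T 30 were, and 22 were in both lines. The limma fit over all probe sets called 45 of the 54 lower in WT, where 4.3% of all tested probe sets were called lower, and 45 in 46T, where 3.5% were; since the rule used these contrasts, nothing is read from either count. In both lines 42 were called, in WT alone 3, in 46T alone 3 and in neither 6.

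The dehydrated arrays did not overlap the control arrays in 46T for all 54 genes (24.7% of all tested probe sets lay wholly lower in that way) and in WT for 45 (12.9% of all tested). The rule chose the genes on the means of these same arrays, so nothing is read from either count. The 9 genes with some overlap in WT were AT1G19530, AT2G28720, AT5G57655, AT1G50040, AT1G04800, AT1G02300, AT1G19540, BLUS1 and AT4G36790. The map of all genes and arrays shows the same values gene by gene.

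**Figure D2:**
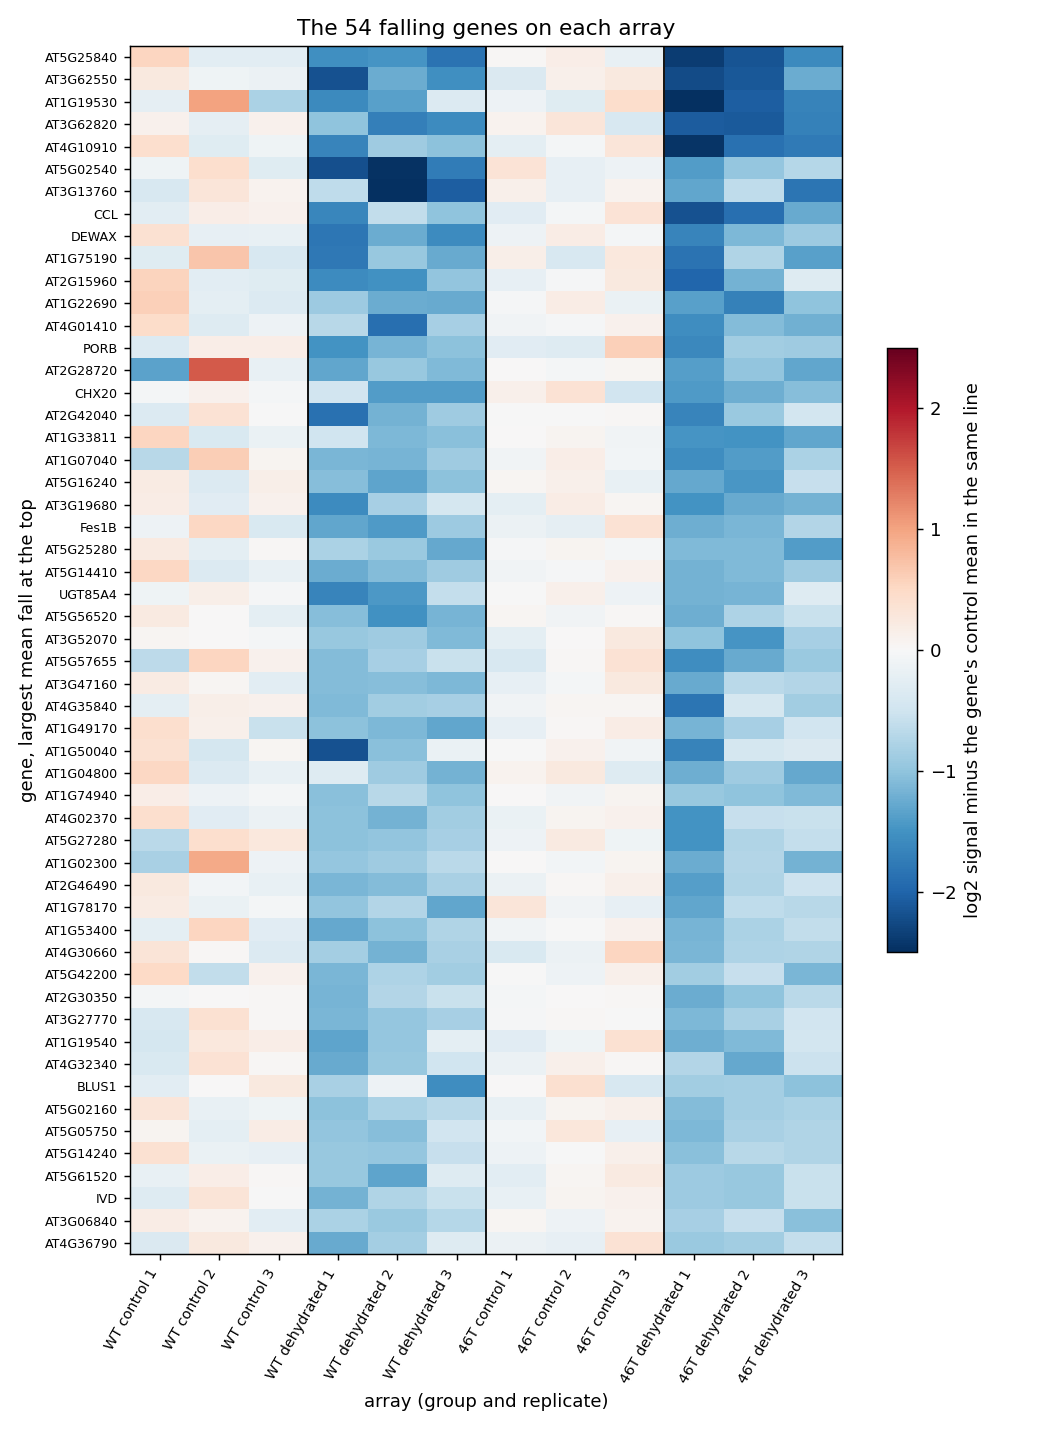
Rows are the 54 genes, ordered by the mean of both lines' differences, and columns are the 12 arrays. Colour gives the log2 signal minus the gene's control mean in the same line, and values beyond 2.5 either way take the end colour. The dehydrated columns of both lines are blue throughout, and 46T dehydrated replicate 1 is the darkest of its group for most rows.

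Among the genes with a known role, DEWAX (AT5G61590), an ethylene response factor that represses wax synthesis genes and is named for it, stood lower in both lines by more than 1 log2 unit. Its log2 signal was 12.54, 11.94 and 11.97 on the WT control arrays and 10.35, 10.91 and 10.57 on the WT dehydrated arrays. In 46T it was 11.70, 12.01 and 11.77 in control seedlings and 10.18, 10.70 and 10.92 after dehydration. The groups did not overlap in either line, and the differences were -1.54 ± 0.21 in WT and -1.23 ± 0.21 in 46T (SE of the fit), which left 34.4% and 42.7% of the control level.

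CCL, short for CCR-like, is a gene with an unstable transcript that follows the circadian clock. Its log2 signal was 11.98, 12.42 and 12.35 in WT control and 10.62, 11.64 and 11.25 in WT dehydrated seedlings. In 46T the control arrays read 12.58, 12.80 and 13.20 and the dehydrated arrays 10.69, 10.98 and 11.60. All dehydrated values were below all control values of the same line, and the 46T control values were all above the WT control values. Its differences were -1.08 ± 0.27 in WT and -1.77 ± 0.27 in 46T, with dehydrated means of 11.17 ± 0.52 in WT and 11.09 ± 0.47 in 46T (SD, n = 3 arrays).

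PORB encodes protochlorophyllide oxidoreductase B, which carries out the light-dependent step of chlorophyll synthesis. It read 11.39, 11.90 and 11.90 in WT control, 10.24, 10.56 and 10.71 in WT dehydrated, 11.48, 11.44 and 12.35 in 46T control and 10.14, 10.88 and 10.87 in 46T dehydrated seedlings. No array of a dehydrated group reached its control group, and the differences were -1.22 ± 0.26 in WT and -1.13 ± 0.26 in 46T. Of 10 tested nuclear genes of photosynthesis, limma called 0 in either line (0 in WT and 1 in 46T at an unadjusted p of 0.05), and their median differences were -0.14 in WT and -0.12 in 46T.

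A pair of guard cell genes belongs to the set. CHX20, a cation/proton exchanger of guard cells that takes part in the osmotic control of stomatal opening, read 7.46, 7.61 and 7.46 in WT control and 7.02, 6.11 and 6.12 in WT dehydrated seedlings. In 46T it read 7.37, 7.61 and 6.78 in control and 5.84, 6.03 and 6.18 in dehydrated seedlings. The groups were apart in both lines, although WT dehydrated replicate 1 lay nearer to the control arrays than to the other dehydrated ones; the differences were -1.09 ± 0.29 and -1.24 ± 0.29. These signals are low for this array, and with 32 added to the linear signal the differences were -0.85 and -0.94.
BLUS1 (AT4G14480), a protein kinase of the guard cell response to blue light, read 7.0, 7.28 and 7.52 in WT control, 6.47, 7.13 and 5.72 in WT dehydrated, 7.58, 7.98 and 7.18 in 46T control and 6.71, 6.72 and 6.56 in 46T dehydrated seedlings. In WT the groups overlapped, through dehydrated replicate 2, and without dehydrated replicate 3 the WT difference was -0.47 in place of -0.83 ± 0.32; in 46T it was -0.91 ± 0.32. Whole seedlings were measured, so fewer cells of a type and less transcript per cell cannot be told apart. Of 6 guard cell lineage genes listed as markers, 3 have a named probe set. FMA, a transcription factor of guard cell formation, went from 6.88 ± 0.33 to 6.47 ± 0.43 in WT and from 7.12 ± 0.35 to 5.75 ± 0.37 in 46T (SD, n = 3 arrays), differences of -0.41 (limma adjusted p = 0.446) and -1.37 (limma adjusted p = 0.0105). SPCH, which starts the lineage, ranged from 4.99 to 6.23 over the WT arrays and from 2.47 to 5.91 over the 46T arrays, and MUTE from 1.11 to 4.29 and from 0.62 to 5.05; both were too low to be tested. The part of guard cell number in the CHX20 and BLUS1 values was not tested.

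**Figure D3:**
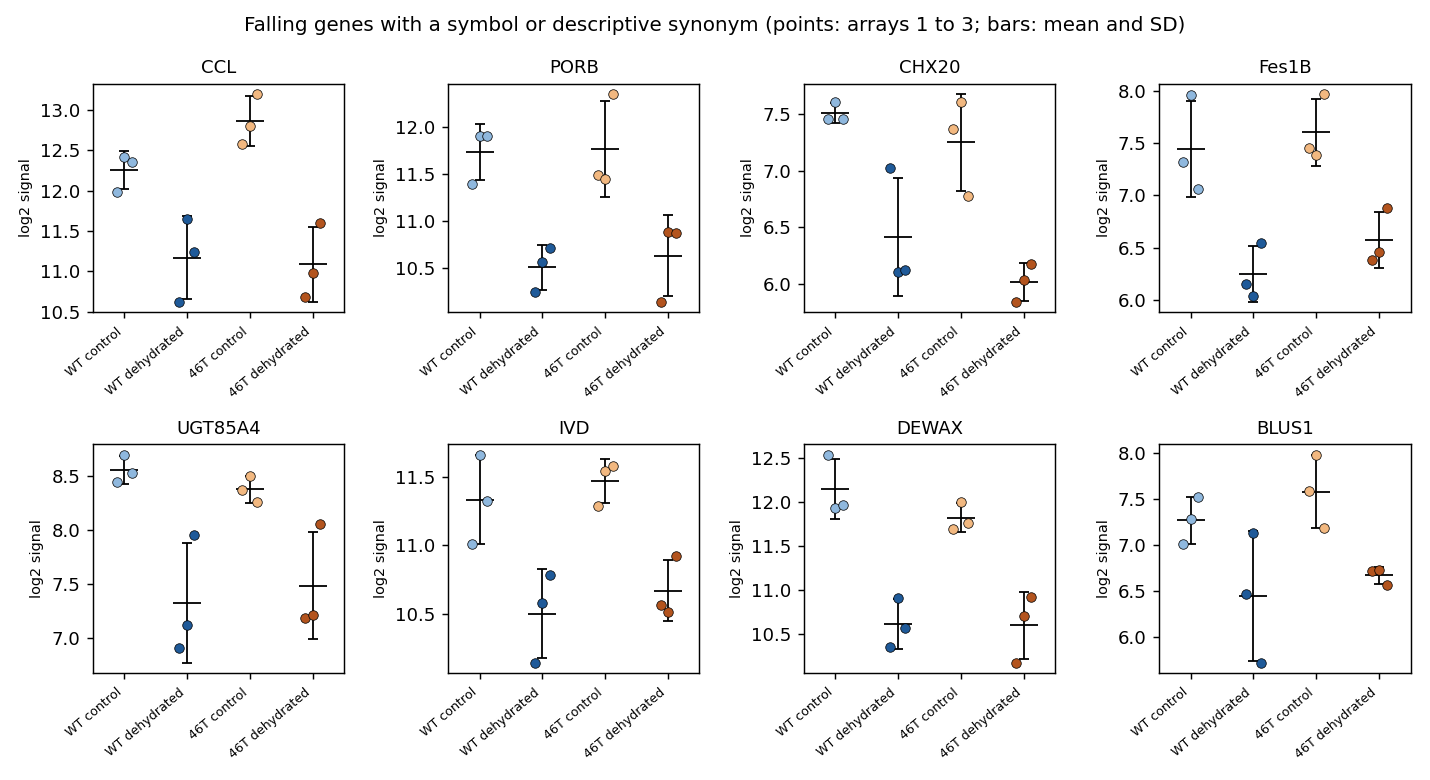
Each panel shows a gene of the set that has a symbol or descriptive synonym, with the log2 signal on the vertical axis (each panel has its own range, not starting at 0) and the 4 groups on the horizontal axis. Points are arrays and bars are the mean and SD of 3 arrays. In every panel the 46T groups are apart, and in the BLUS1 panel the WT groups overlap.

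IVD encodes isovaleryl-CoA dehydrogenase, a mitochondrial enzyme of leucine breakdown, a pathway plants use when carbohydrate runs short. It read 11.01, 11.66 and 11.33 in WT control, 10.14, 10.58 and 10.78 in WT dehydrated, 11.29, 11.54 and 11.58 in 46T control and 10.56, 10.51 and 10.92 in 46T dehydrated seedlings. The groups did not overlap, and the differences, -0.83 ± 0.20 and -0.80 ± 0.20, lie just inside the threshold. The enzyme of the next step, 3-methylcrotonyl-CoA carboxylase, has subunits encoded by MCCA and MCCB, which are not in the set. MCCB was at 10.89 ± 0.48 and 10.37 ± 0.21 in WT, a difference of -0.52 (limma adjusted p = 0.146), and it fell in 46T from 11.38 ± 0.20 to 10.56 ± 0.26 (SD, n = 3), by 0.81 (limma adjusted p = 0.0304). MCCA, named after its values were seen, differed by -0.57 in WT (limma adjusted p = 0.227) and by -0.85 in 46T (limma adjusted p = 0.0839).

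UGT85A4, a UDP-glucosyltransferase, one of the enzymes that attach glucose to small molecules, read 8.44, 8.69 and 8.53 in WT control and 6.91, 7.12 and 7.95 in WT dehydrated seedlings, and 8.37, 8.50 and 8.25 in 46T control and 7.19, 7.22 and 8.05 in 46T dehydrated seedlings. In both lines dehydrated replicate 3 was the array nearest to control, and the differences were -1.23 ± 0.27 and -0.89 ± 0.27. Fes1B, named for the Fes1 exchange factors of the Hsp70 chaperones, read 7.32, 7.96 and 7.06 in WT control and 6.16, 6.04 and 6.55 in WT dehydrated seedlings, and 7.46, 7.39 and 7.97 in 46T control and 6.38, 6.46 and 6.88 in 46T dehydrated seedlings. Its groups were apart in both lines, with differences of -1.20 ± 0.27 and -1.03 ± 0.27.

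The genes with the largest mean difference over both lines are known by locus tag. AT5G25840 headed the order. It read 9.70, 8.90 and 8.91 in WT control, 7.64, 7.69 and 7.32 in WT dehydrated, 9.24, 9.38 and 9.04 in 46T control and 6.85, 7.07 and 7.63 in 46T dehydrated seedlings, differences of -1.62 ± 0.24 and -2.03 ± 0.24. More than 1 log2 unit separated its control and dehydrated arrays in each line. AT3G62550 followed, at 11.33, 10.99 and 10.94 in WT control, 8.91, 9.84 and 9.55 in WT dehydrated, 10.91, 11.39 and 11.52 in 46T control and 9.03, 9.16 and 10.04 in 46T dehydrated seedlings. AT3G62820 read 9.43, 9.11 and 9.44, then 8.32, 7.62 and 7.75 in WT, and 9.28, 9.50 and 8.79, then 7.12, 7.10 and 7.50 in 46T, control before dehydrated. Both genes kept their groups apart, with differences of -1.65 ± 0.28 and -1.86 ± 0.28 for AT3G62550 and of -1.43 ± 0.23 and -1.95 ± 0.23 for AT3G62820.

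AT1G19530 was left at the smallest share of its control level in 46T, 20.3%, and varied widely in WT. Its WT control arrays read 7.17, 8.41 and 6.61 and its WT dehydrated arrays 5.81, 6.03 and 7.05. In 46T it read 8.61, 8.42 and 9.17 in control and 5.57, 6.68 and 7.06 in dehydrated seedlings. The WT groups overlapped and the 46T groups did not. The differences were -1.10 ± 0.47 in WT and -2.30 ± 0.47 in 46T, and the first was -0.59 without WT control replicate 2. AT1G19540, the next gene along chromosome 1 in the annotation with no gene between them, is also in the set and also overlapped in WT, at 7.53, 8.23 and 8.13 in control against 6.64, 6.99 and 7.72. In 46T it read 7.73, 7.92 and 8.40 in control and 6.80, 6.92 and 7.56 after dehydration, with no overlap, and its differences were -0.85 ± 0.31 and -0.92 ± 0.31.

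AT5G02540 had the largest difference in WT. It read 9.33, 9.87 and 9.13 in WT control and 7.24, 6.97 and 7.70 in WT dehydrated seedlings, against 8.81, 8.27 and 8.34 in 46T control and 7.08, 7.50 and 7.76 in 46T dehydrated seedlings. The dehydrated levels of the lines overlapped and the control levels did not, those of WT being higher; the differences were -2.14 ± 0.25 in WT and -1.03 ± 0.25 in 46T. AT4G10910 leaned the other way, at 9.54, 8.81 and 9.0 in WT control, 7.47, 8.23 and 8.10 in WT dehydrated, 9.16, 9.35 and 9.70 in 46T control and 6.94, 7.53 and 7.63 in 46T dehydrated seedlings. Its differences were -1.18 ± 0.26 in WT and -2.03 ± 0.26 in 46T.

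AT3G13760 was among the least precisely measured genes. Its WT control arrays read 6.75, 7.46 and 7.23 and its WT dehydrated arrays 6.52, 4.30 and 5.09, and in 46T the arrays read 7.42, 7.09 and 7.39, then 5.99, 6.66 and 5.48. The groups stayed apart, but the WT difference of -1.84 ± 0.46 was -1.22 with 32 added to the linear signal, the one difference of the set that this changed by over 1.5 times, and -1.34 without WT dehydrated replicate 2. AT1G75190 read 7.17, 8.18 and 7.07 in WT control, 5.69, 6.52 and 6.22 in WT dehydrated, 8.40, 7.84 and 8.50 in 46T control and 6.40, 7.50 and 6.89 in 46T dehydrated seedlings, with differences of -1.33 ± 0.35 and -1.32 ± 0.35. Within each line its groups did not overlap.

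AT2G15960 read 12.16, 11.35 and 11.30 in WT control and 10.04, 10.09 and 10.62 in WT dehydrated seedlings, and 11.20, 11.39 and 11.66 in 46T control and 9.44, 10.24 and 11.09 in 46T dehydrated seedlings. AT1G22690 read 12.33, 11.49 and 11.39, then 10.83, 10.50 and 10.47 in WT, and went from 11.81 ± 0.18 to 10.46 ± 0.34 in 46T (SD, n = 3 arrays). Neither gene overlapped between control and dehydrated arrays of a line, though AT2G15960 came close to it in 46T through dehydrated replicate 3. Its 46T difference of -1.16 ± 0.34 was -0.75 without dehydrated replicate 1, while AT1G22690 differed by -1.14 ± 0.23 and -1.35 ± 0.23.

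The remaining genes had smaller mean differences, from -1.21 for AT4G01410 to -0.80 for AT4G36790. Some of them were measured tightly: AT1G74940 went from 9.13 ± 0.16 to 8.21 ± 0.20 in WT and from 9.0 ± 0.09 to 7.99 ± 0.08 in 46T (SD, n = 3 arrays). AT5G25280 went from 12.28 ± 0.23 to 11.28 ± 0.26 and from 12.24 ± 0.06 to 11.04 ± 0.17, and AT3G52070 from 10.13 ± 0.05 to 9.15 ± 0.11 and from 10.08 ± 0.24 to 8.98 ± 0.33. For these the difference was several times the SD of either group. They were picked for a small SD after their values were seen, and the rule chose their differences, so nothing is read from this. AT1G33811 was at 53.9% of control in WT and 37.3% in 46T, AT3G19680 at 52.1% and 40.5%, AT5G57655 at 56.5% and 42.1%, and AT5G56520, in the opposite order, at 42.3% and 55.7%. AT1G50040 rested on few arrays: dehydrated replicate 1 read 7.23 in WT and 7.50 in 46T, while the other dehydrated arrays read 8.38 and 9.25 in WT and 8.73 and 8.83 in 46T, and without that array of 46T its difference there was -0.40 in place of -0.83 ± 0.43.

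Several genes of the set varied widely among the WT control arrays. AT2G28720 read 5.94, 8.82 and 7.09 there and 5.99, 6.34 and 6.17 on the WT dehydrated arrays, so that WT control replicate 1 was lower than every dehydrated array. In 46T the same gene read 8.15, 8.11 and 8.19 in control and 6.78, 7.16 and 6.86 in dehydrated seedlings, a clear separation. Its WT difference of -1.12 ± 0.49 was -0.35 without control replicate 2, and that of 46T was -1.22 ± 0.49. AT1G02300 (6.90, 8.65 and 7.58), AT1G07040 (9.03, 10.35 and 9.80), AT5G57655 (9.33, 10.52 and 10.09) and AT5G27280 (8.39, 9.48 and 9.33) were likewise lowest on WT control replicate 1 and highest on replicate 2. AT1G33811 (10.67, 9.76 and 9.97), AT5G14410 (10.42, 9.57 and 9.73), AT4G02370 (11.27, 10.57 and 10.71) and AT1G04800 (10.05, 9.19 and 9.34) were highest on replicate 1 and lowest on replicate 2. Over the set, WT control replicate 1 was the highest of its group for 27 genes and the lowest for 19, while replicate 3 was the highest for 5. The same shares over all tested probe sets were not counted, and the rule used the mean of these arrays, so nothing particular to the set is read from them. The SD among WT control arrays had a median of 0.35 over the 54 genes, and among 46T control arrays it had a median of 0.18, beside 0.32 and 0.14 over all tested probe sets.

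A few genes varied mainly among the dehydrated arrays. AT4G35840 read 5.87, 7.25 and 6.84 in 46T dehydrated seedlings, and its difference there of -1.04 ± 0.28 was -0.65 without replicate 1. AT2G42040 read 8.29, 9.01 and 9.48 in the same group and 7.84, 8.52 and 8.82 in WT dehydrated seedlings, with the highest value on replicate 3 in both lines. AT4G01410 had 1 low array in WT, at 8.18, 6.99 and 8.04, and its WT difference of -1.14 ± 0.28 was -0.76 without it.

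The thresholds cut through a continuum. The genes just inside the difference threshold were AT4G36790 (-0.80 in both lines), AT1G04800 (-0.80 in WT and -1.13 in 46T) and IVD. Just outside were AT1G26920 (-0.80 in WT, short of the threshold in the third decimal, and -0.86 in 46T), AT4G18740 (-0.96 and -0.79) and AT3G06210 (-0.79 and -0.89). At the level threshold, AT3G06840 was just inside with a control mean of 7.01 in 46T, AT3G13760 with 7.15 and CHX20 with 7.25 at their lower control mean. AT1G36940 (6.95 in WT), AT3G42800 (6.95 in 46T) and AT5G43440 (6.84 in WT) were just outside, with differences in WT of -0.91, -2.08 and -1.06. With thresholds of -1.0 and -0.6 the rule would have taken 21 and 186 genes.

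The arrays of a group did not all show the set to the same depth. The median over the 54 genes, each taken against its control mean in the same line, was -1.12, -1.05 and -0.89 on WT dehydrated replicates 1, 2 and 3 and -1.29, -0.96 and -0.81 on those of 46T. All 54 genes were below their control mean on each of these 6 arrays, but the rule required low means of these same arrays, so nothing is read from that count. Over all tested probe sets the same arrays had medians between -0.09 and 0.01. 46T dehydrated replicate 1 was the lowest array of its group for 39 of the 54 genes, where it was the lowest for 39.0% of all tested probe sets. Replicate 3 was the highest for 38 of the 54, and its share over all tested probe sets was not counted. The rule used the mean of this group and so favours genes with a low array in it. Nothing is read from either count. Leaving out 46T dehydrated replicate 1 reduced the genes chosen by the rule to 33, all among the 54, and the calls in 46T to 18. Over all tested probe sets, the calls in 46T in either direction went from 1476 to 772 in that fit. The calls in WT were 26 without dehydrated replicate 1 and 28 without dehydrated replicate 2, and those in 46T were 29, 24 and 25 without control replicates 1, 2 and 3. Over all tested probe sets the same fits called 833 and 869 in WT, in place of 1680, and 991, 879 and 834 in 46T. The counts of the set fell along with calls at large, so nothing particular to the set is read from them.

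**Figure D4:**
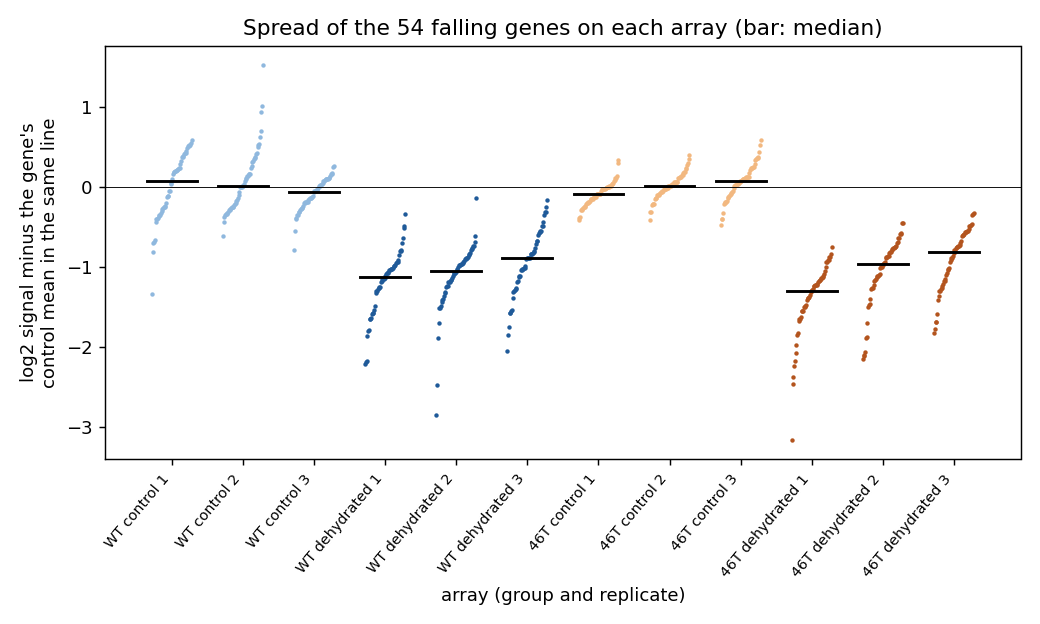
For each array, points are the 54 genes in order of value and the bar is their median, as log2 signal minus the gene's control mean in the same line. Control arrays centre near 0, and among dehydrated arrays the median is lowest on 46T dehydrated replicate 1, at -1.29, and highest on 46T dehydrated replicate 3, at -0.81.

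The lines were then compared within each condition. The rule did not use these contrasts as such, but it used the same group means and required log2 7 in both control groups. It left out genes such as AT5G43440, at 6.84 in WT control and 7.69 in 46T control seedlings. The comparisons are therefore not independent of the rule. In control seedlings none of the 54 genes was called between 46T and WT (0 of 54 by limma at an adjusted p of 0.05; 0.359% of all tested probe sets were called). At an unadjusted p of 0.05 limma gave 5 genes of the 54, or 4 higher and 1 lower in 46T, where 13.7% of all tested probe sets passed. The differences had a median of 0.04, beside 0.07 over all probe sets, and 48 of the 54 were smaller than 0.5 either way. The 95% intervals reached a median of 0.53 to each side, so a difference of that size could go unseen in a typical gene.
The 5 genes with the smallest p, which did not pass after adjustment, were AT5G02540 (-0.97 ± 0.25, limma adjusted p = 0.148), AT1G19530 (1.34 ± 0.47, limma adjusted p = 0.286), AT5G57655 (0.75 ± 0.28, limma adjusted p = 0.321), CCL (0.61 ± 0.27, limma adjusted p = 0.353) and AT1G75190 (0.77 ± 0.35, limma adjusted p = 0.357). For AT5G02540 and CCL all arrays of one line lay on one side of all arrays of the other, for AT1G19530 the lowest 46T array (8.42) lay just above the highest WT array (8.41), and for AT5G57655 and AT1G75190 the lines overlapped. AT5G57655 was at 0.42 without WT control replicate 1. Without WT control replicate 2 many more probe sets were called everywhere, 11.3% of all tested in either direction and 9.33% higher in 46T, and 5 of the 54 genes were called higher in 46T, a share near that background: AT2G28720 (1.64, limma adjusted p = 0.008), AT1G19530 (1.85, limma adjusted p = 0.0203), AT5G57655 (1.02, limma adjusted p = 0.0295), AT1G02300 (0.87, limma adjusted p = 0.0372) and AT1G75190 (1.12, limma adjusted p = 0.0438). With array weights 6 of the 54 were called, where 20.2% of all tested probe sets were.

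After dehydration none of the 54 was called between the lines either (0 of 54 by limma; 0.152% of all tested probe sets were called). At an unadjusted p of 0.05 there were 5, or 2 higher and 3 lower in 46T, where 9.64% of all tested probe sets passed. The smallest p belonged to AT3G62820 (-0.66 ± 0.23, limma adjusted p = 0.383), whose 3 dehydrated 46T arrays all lay below the 3 WT ones, then to AT1G04800 (-0.63 ± 0.26), AT1G75190 (0.79 ± 0.35), AT1G53400 (0.48 ± 0.22) and AT4G10910 (-0.56 ± 0.26), with limma adjusted p-values of 0.477 to 0.51. Single arrays weighed on several of these: without WT dehydrated replicate 1, AT3G62820 was at -0.45 and AT1G04800 at -0.39. AT4G10910 was at -0.35 without 46T dehydrated replicate 1 and AT1G75190 at 0.50 without 46T dehydrated replicate 2. The median over the set was 0.01, beside 0.03 over all probe sets. DEWAX stood at -0.01 (95% interval -0.47 to 0.45) and CCL at -0.08 (-0.65 to 0.49).

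The interaction, the dehydration difference in 46T minus that in WT, is made of the values the rule used. Requiring a lower level in both lines left out genes that passed in 1 line alone, so the interactions of the 54 genes are a description and are not evidence of a like response. None of the 54 was called (0 by limma, with 0.0% of all tested probe sets called). The 95% intervals of 2 genes did not hold 0 (an unadjusted p of 0.05, which 2.01% of all tested probe sets passed): AT5G02540, whose difference was 1.11 ± 0.36 smaller in size in 46T (95% interval 0.35 to 1.88), and AT4G10910, where it was larger in 46T (-0.85 ± 0.37, interval -1.63 to -0.06). The difference was larger in 46T for 28 genes and in WT for 26, with a median interaction of -0.00, beside -0.04 over all probe sets. Next in order of p came CCL (-0.69, interval -1.50 to 0.12), AT1G19530 (-1.20, interval -2.63 to 0.23) and AT1G33811 (-0.53, interval -1.19 to 0.13), whose intervals hold 0. CCL was at -0.45 without WT dehydrated replicate 2 and AT1G19530 at -0.77 without 46T dehydrated replicate 1. AT1G33811 was at -0.34 without WT dehydrated replicate 1 or WT control replicate 2, and at -0.80 without WT control replicate 1.
For the genes of known role the intervals of the interaction ran from -0.34 to 0.96 for DEWAX, from -0.69 to 0.88 for PORB, from -1.01 to 0.73 for CHX20, from -1.05 to 0.88 for BLUS1 and from -0.57 to 0.63 for IVD. Each holds 0, and their width means that they do not show both lines to respond alike.

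**Figure D5:**
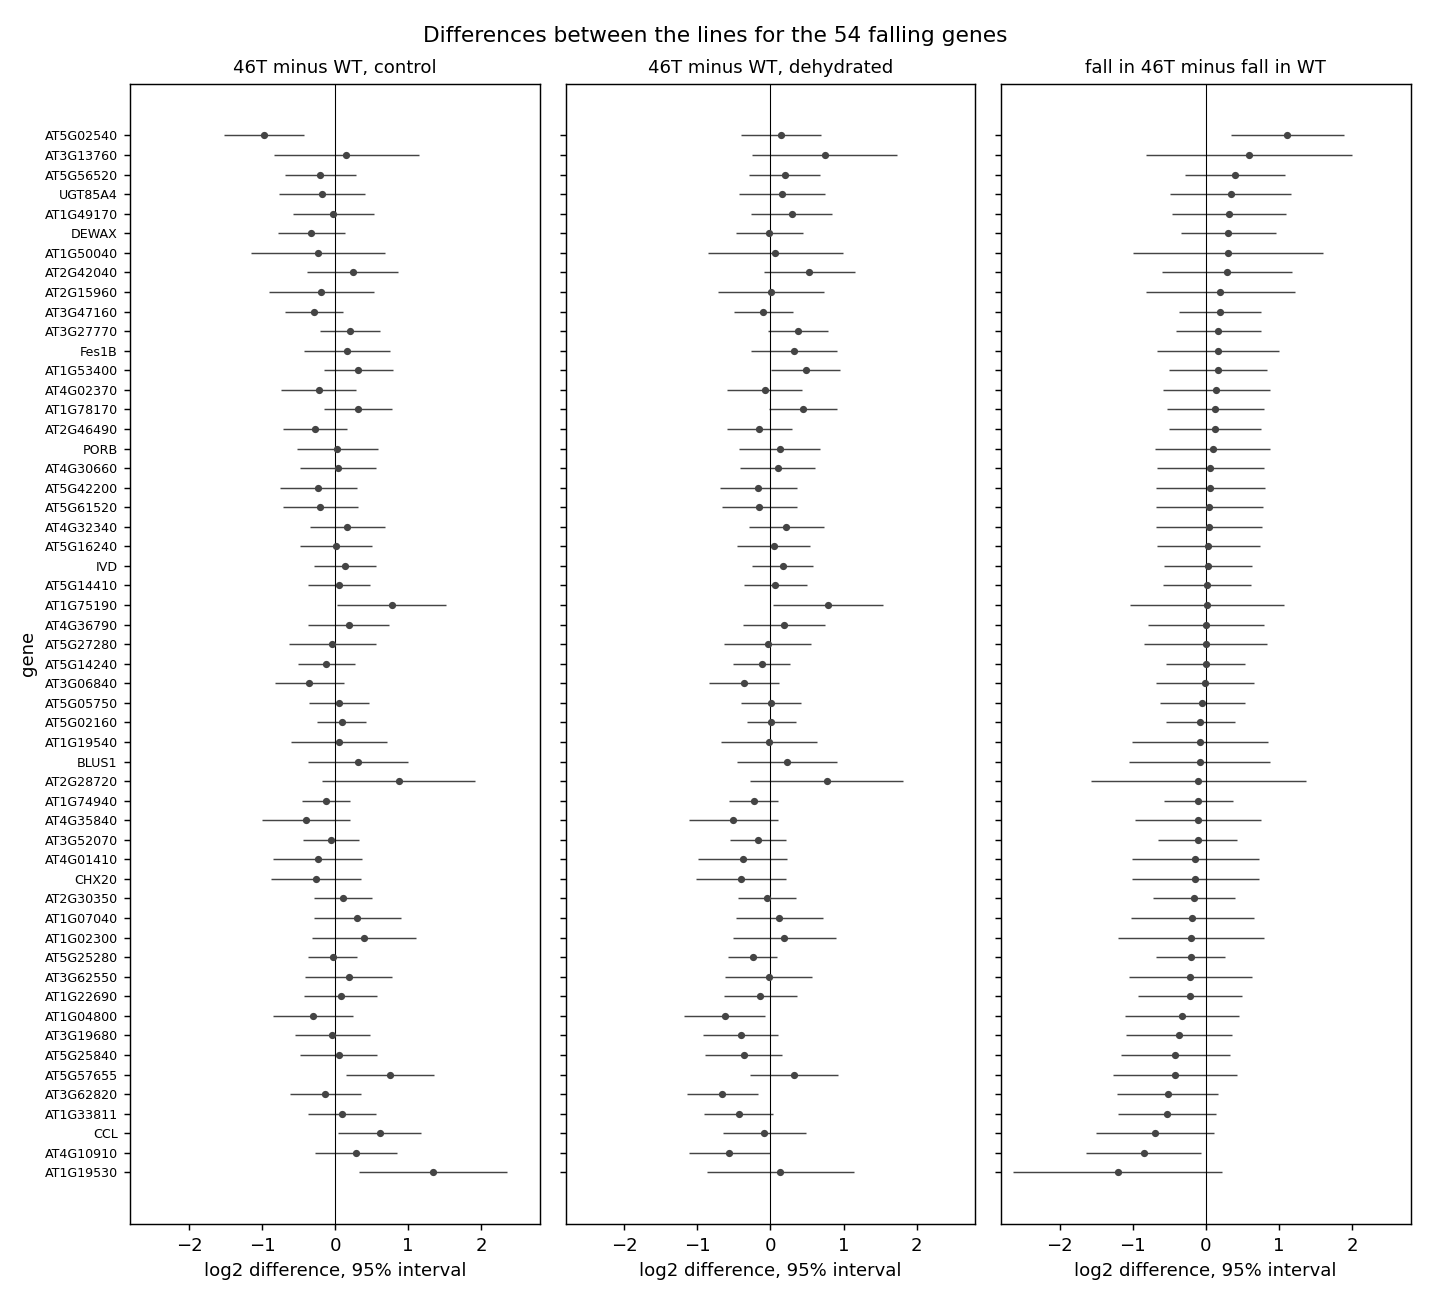
Points are the log2 differences of the 54 genes with 95% intervals from the limma fit: 46T minus WT in control seedlings, 46T minus WT in dehydrated seedlings, and the dehydration difference in 46T minus that in WT. Genes are ordered by the last of these, from AT1G19530 at the bottom (-1.20) to AT5G02540 at the top (1.11), and most intervals span 0.

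Genes related to the set were looked at through 16 gene lists, of which 12 had a tested gene, 62 genes in all. Of these, 7 belong to the 54 and were chosen for being lower. Among the other 55, limma called 6 lower and 3 higher after dehydration in WT, and 4 lower and 2 higher in 46T. Over all tested probe sets 4.3% were called lower and 7.29% higher in WT, and 3.5% and 6.69% in 46T. In the comparisons between the lines 0 of the 62 were called (by limma, with 6 in control and 6 in dehydrated seedlings at an unadjusted p of 0.05, and 0 for the interaction). The carbon starvation and dark response list had 5 tested genes beside CCL and IVD, which were chosen for being lower in both lines. Of these 5, AKINBETA1 was called lower in both lines. It encodes a regulatory subunit of the SnRK1 kinase of energy shortage. AKINBETA1, named after its values were seen, fell by 0.67 ± 0.19 in WT (limma adjusted p = 0.0347) and fell by 0.70 ± 0.19 in 46T (limma adjusted p = 0.0311). AT1G18460 of the same list rose in WT by 0.86 ± 0.15 (limma adjusted p = 0.00205) and was at 0.50 ± 0.15 in 46T (limma adjusted p = 0.0512). The medians of the 5 genes were -0.57 in WT and -0.81 in 46T.

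The clock list had 3 tested genes, and beside CCL neither GI, the clock gene GIGANTEA (-0.09 in WT, -0.70 ± 0.32 in 46T, limma adjusted p = 0.197), nor AFR was called in either line. The universal stress protein list had 12 tested genes beside AT3G62550 of the set, and of these AT1G11360 was called lower in both lines. AT1G11360 fell by 0.90 ± 0.17 in WT (limma adjusted p = 0.00314) and fell by 0.75 ± 0.17 in 46T (limma adjusted p = 0.00974). AT3G17020 fell by 0.71 ± 0.18 in WT (limma adjusted p = 0.0223) and was at -0.52 ± 0.18 in 46T (limma adjusted p = 0.0899), where it was not called. The gibberellin list had 3 tested genes, AT1G22690 of the set, AT2G14900, which fell by 1.29 ± 0.28 in WT (limma adjusted p = 0.00922) and was at -0.65 ± 0.28 in 46T (limma adjusted p = 0.171), and GID1A, a gibberellin receptor, which was called in neither line.

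The cell wall list had 12 tested genes beside AT3G62820, which was chosen for being lower. Of these 12, XTH18 and XTH19, enzymes that cut and rejoin the xyloglucan of the wall, were called higher in both lines. XTH18 rose by 1.88 ± 0.35 in WT (limma adjusted p = 0.00321) and by 2.84 ± 0.35 in 46T (limma adjusted p = 7.1e-05), and XTH19 by 1.13 ± 0.26 (limma adjusted p = 0.0115) and by 1.25 ± 0.26 (limma adjusted p = 0.00601). The low-oxygen list had 6 tested genes beside AT1G19530 of the set, of which 2 were called lower in WT and 1 in 46T, with none in both. AT5G44730 fell by 0.66 ± 0.17 (limma adjusted p = 0.021) and AT4G10270 fell by 1.33 ± 0.40 (limma adjusted p = 0.0452) in WT, against -0.33 and -0.53 in 46T, where neither was called. In 46T AT1G33055 was called and fell by 0.85 ± 0.23 (limma adjusted p = 0.0278) and was at -0.55 in WT. DEWAX was the only tested gene of the ethylene and AP2/ERF list. The other lists with a tested gene (photosynthesis, proline, growth regulators, metallothioneins and nitrate) held no gene of the set and no gene called by limma (1 nitrate gene in WT and 1 photosynthesis gene in 46T at an unadjusted p of 0.05).

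Few markers of the seedlings' tissues have a named probe set. RCA, the activase of the carbon-fixing enzyme and the 1 named gene of 6 listed shoot markers, was between 14.74 and 15.18 on every array, and AT1G62500, the 1 named gene of 7 listed root markers, was between 9.25 and 9.99. None of the 3 flower and 4 seed markers is named in the tables used here. Within a group, the arrays correlated with Spearman coefficients of 0.91 to 0.99 over all tested probe sets.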

How the data were processed

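RNA of 12 seedling samples was hybridised to ATH1 arrays. The deposited values are log2 MAS5 signals, per the submitters' processing notes and the values themselves, and on the linear scale each array has a 2% trimmed mean of 500.0 to 500.1; other settings of the authors' processing are not stated. They were used unchanged. Of 22810 probe sets, 64 controls and those that did not exceed the 40th percentile of the array on 3 or more arrays were left out, and the other 14495 were tested with limma 3.58.1 (R 4.3.3): group means over all 12 arrays, eBayes with trend, two-sided, called at a Benjamini-Hochberg adjusted p of 0.05. The test was tried on simulated data. Gene names come from the platform annotation, updated through RefSeq (TAIR10.1), where 13436 of 13513 probe sets with 1 gene matched; 503 name several genes and 8794 are unnamed here.

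The 54 genes, the gene lists and the tests were chosen with earlier results of these data known. Named with values were the 12 genes with the largest mean difference, genes with a symbol, list members, those nearest the thresholds and the 5 smallest p of each comparison between the lines; MCCA, AKINBETA1 and the genes shown for their spread or tightness were chosen after their values were seen. Symbols that only share a prefix's letters with a list (PRP39, PRP39-2, PMEAMT, PIP, PIFI and STOMAGEN) were left out of it, and the aquaporin, B-box, brassinosteroid and small auxin up RNA lists had no tested gene. Alternatives were array weights, quantile normalization, median centring, a pseudocount of 32, other filters, fits of the compared groups alone, a replicate block and leaving out each array.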

Additional observations from a re-analysis of the deposited data

How the results depend on the processing

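The dehydration differences of the 54 genes kept their direction under all alternatives run. The rule chose the genes on these differences, and several alternatives cannot change the estimate, so nothing is read from this. Small differences between the lines did not keep their direction: the sign turned under at least 1 alternative for 26 genes in control and 28 in dehydrated seedlings. The interaction turned sign for 34 genes, 14 of them with array weights, such as BLUS1 (0.05) and IVD (-0.01). Of the counts and medians, 146 values stayed within 1.5 times or 1 SD of the value reported, while 12 moved further. Many of the 146 were counts that stayed at 0 or medians that the alternative cannot change, so this tally does not measure stability. In the fit of the WT groups alone, 26 genes were called lower in WT in place of 45. Over all tested probe sets, the calls in either direction in that comparison went from 1680 to 751. With array weights, 6 genes were called between the lines in control seedlings in place of 0, namely AT1G19530 (1.90), AT1G75190 (1.06), AT2G28720 (0.97), AT5G57655 (0.56), AT1G53400 (0.53) and AT5G02540 (-0.68), where 20.2% of all tested probe sets were called; the weights did not converge fully and gave WT control replicates 1 and 3 weights of 0.14 and 3.84. The rule chose 21 genes at a difference of -1.0 and 186 at -0.6, fewer and more by construction, 40 with the pseudocount (38 of the 54 among them) and 56 with quantile normalization or median centring (50 of the 54 in each). Leaving out each array in turn gave 26 to 48 calls in WT (28 without WT dehydrated replicate 2), 18 to 51 in 46T, 0 to 5 between the lines in control seedlings, 0 in dehydrated seedlings and 0 for the interaction, and 33 to 74 genes chosen by the rule. Over all tested probe sets, the dehydration calls in either direction ranged from 833 to 2372 in WT and from 772 to 2382 in 46T. The cause of these changes was not tested.

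The replicate numbers were not taken to pair the arrays, since deviations of same-numbered arrays correlated at -0.12 to 0.35, not all above 0.1, and those of others at -0.36 to 0.14. Over the 54 genes the dehydrated arrays had the same order by number in both lines. With the replicate block, 49 genes were called in each line and 0 in either comparison between the lines or the interaction. Over all tested probe sets, the block gave 1778 dehydration calls in WT and 1592 in 46T, in place of 1680 and 1476. No fit of the compared groups alone exists for the interaction, and the strict filter left 43 of the 54 genes. Signals near log2 7 limit what can be read from the weakest genes.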

Other observations

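The WT control arrays differed among themselves more than those of 46T for the genes that separate the lines when WT control replicate 2 is left out. Choosing genes by leaving out an array favours a wide spread in its group, so this describes how they were picked. AT2G28720 had an SD of 1.45 among the WT control arrays and 0.04 among those of 46T, AT1G19530 had 0.92 and 0.39, and AT1G02300 had 0.88 and 0.07. The SD exceeded 0.5 for 9 of the 54 genes in WT control, 12 in WT dehydrated, 1 in 46T control and 9 in 46T dehydrated seedlings. The share of all tested probe sets above 0.5 was not counted. The median SD in the same groups was 0.346, 0.275, 0.175 and 0.331 over the 54 genes. Over all tested probe sets it was 0.32, 0.19, 0.14 and 0.18. By the median, WT control was the most spread group in both, though close to 46T dehydrated over the 54 genes. By the count above 0.5, WT dehydrated was the most spread group of the set.

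The 54 genes lie on all nuclear chromosomes, 14 on chromosome 1, 5 on chromosome 2, 12 on chromosome 3, 9 on chromosome 4 and 14 on chromosome 5. Apart from the neighbours AT1G19530 and AT1G19540, CHX20 and Fes1B have 8 annotated genes between them, and AT5G61520 and DEWAX have 7.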
